A study of Homo sapiens with 9 samples.

Results

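A549 cells carrying a plasmid for LINC00996 were compared with A549 cells carrying a control plasmid. The libraries were chosen by their labels, 3 for LINC00996 and 3 for the control plasmid, and made up 6 of the 9 libraries of the series. A549 is an established line from a human lung adenocarcinoma. The study built risk scores from long non-coding RNAs in lung adenocarcinoma and squamous cell carcinoma, and raising LINC00996 in A549 asks which genes differ when this transcript is abundant. Plasmids were delivered with the jetPRIME reagent, and poly(A)-selected RNA was sequenced. In the labels of the controls the plasmid is written PC3.1, PC3.2 or PC3.3, taken here as a single control plasmid in 3 replicates. The labels do not say that the replicates were separate cultures, so p-values measure the spread between these samples, which may be technical. The other 3 libraries, from cells with an AP001189.3 plasmid, appear beside genes named here, in counts of calls and mitochondrial shares, and in an alternative fit.

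LINC00996 is an intergenic long non-coding RNA whose gene lies in a cluster of GIMAP genes, which encode small GTPases of immune cells. A549 cells keep many features of airway and alveolar epithelium: they make keratins, mucins, complement proteins and chemokines, and deposit fibronectin. The line lacks a working KEAP1, so the transcription factor NRF2 is active and its targets, among them aldehyde dehydrogenases and aldo-keto reductases, are abundant.

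The control libraries held 17062469, 16114345 and 17390680 counts, and the LINC00996 libraries held 18125447, 15272450 and 18047062. LINC00996 (ENSG00000242258, chr7:150433654-150448140, GRCh38) had 9, 8 and 4 counts in control replicates 1 to 3 and 5239, 4373 and 5952 counts in LINC00996 replicates 1 to 3. Each LINC00996 library stood far above every control, as its label states. Its level was 0.536, 0.504 and 0.233 CPM, the count scaled to the TMM-adjusted library size, in the controls against 290.0, 280.4 and 326 CPM, and replicate 1 lay between the other LINC00996 libraries. Levels are listed for replicates 1, 2 and 3 in that order. The primer pair that the study used to measure it is shown here because it marks which stretch of the transcript was assayed. On GRCh38 the forward primer lies at chr7:150433796-150433816 on the plus strand, in exon 1, and the reverse primer is read from chr7:150442600-150442622 on the minus strand. Together they span 108 bases of LINC00996-201, a transcript of 2043 bases in 4 exons, and 236 bases of LINC00996-202, with 572 bases in 3 exons.
LINC00996-F: CTCTGCCACATCGTTCGGTTC
LINC00996-R: CTTCTTACGCTGCCAACTGCTAA

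LINC00996 replicate 1 stood apart from LINC00996 replicates 2 and 3, and the tests were therefore run with and without it. Of 14625 genes with enough counts, 210 were at least 1 log2 unit higher and 76 at least 1 lower in replicate 1 than the mean of its fellow replicates. The same count gave 48 and 73 for LINC00996 replicate 2, and 34 and 121 for replicate 3. In the controls it gave 70 and 49 for replicate 1, 42 and 57 for replicate 2, and 34 and 95 for replicate 3. The deviation of replicate 1 ran mostly upward, while LINC00996 replicate 3 and control replicate 3 leaned downward. On the main axis of a principal component analysis, which held 54.05% of the variance, replicate 1 lay with its group at 41.9, beside 29.01 and 24.1, and the controls lay between −33.5 and −29.7. The next axis, with 19.1%, set replicate 1 at 33.2 apart from replicates 2 and 3 at −17.4 and −25.3.

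The genes that set replicate 1 apart were picked for that after their values were seen. RN7SL2 is an RNA of the signal recognition particle, which brings secretory proteins to the endoplasmic reticulum. For it, control replicates 1 to 3 had 7.08, 5.10 and 0.931 CPM, LINC00996 replicate 1 had 127 CPM and LINC00996 replicates 2 and 3 had 18.7 and 15.6 CPM. For ALDOA, the glycolytic aldolase, control replicates 1 to 3 had 20.2, 15.9 and 10.99 CPM, LINC00996 replicate 1 had 32.2 CPM and LINC00996 replicates 2 and 3 had 4.81 and 4.92 CPM. Replicate 1 was thus the highest library for both genes. For CFB, the complement factor B gene, control replicates 1 to 3 had 109, 90.7 and 75.4 CPM, LINC00996 replicate 1 had 53.5 CPM and LINC00996 replicates 2 and 3 had 15.8 and 15.8 CPM. Here replicate 1 lay between the controls and its fellow replicates, so that its removal enlarges the difference. The ribosomal gene RPS28 and its pseudogene copy RPS28P7 moved in opposite directions. For RPS28, control replicates 1 to 3 had 107, 103 and 107 CPM, LINC00996 replicate 1 had 52.4 CPM and LINC00996 replicates 2 and 3 had 99.9 and 92.05 CPM. For RPS28P7, control replicates 1 to 3 had 88.7, 90.7 and 100.2 CPM, LINC00996 replicate 1 had 203 CPM and LINC00996 replicates 2 and 3 had 45.5 and 45.995 CPM. Reads of near-identical copies such as these cannot be placed surely, so both levels are uncertain. TLR3, a receptor for double-stranded RNA, went the other way from CFB. For TLR3, control replicates 1 to 3 had 58.7, 64.5 and 68.99 CPM, LINC00996 replicate 1 had 19.2 CPM and LINC00996 replicates 2 and 3 had 31.995 and 37.7 CPM, and replicate 1 lay farthest from the controls.

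With LINC00996 abundant, more genes fell than rose among mucins, complement proteins, matrix and adhesion proteins, and hypoxia-inducible genes. So it was for the list of growth factor ligands, receptors and binding proteins, and for that of the TNF superfamily, death receptors and caspases. More rose than fell among genes of DNA replication, mitosis, mitochondrial ribosomes, splicing proteins, protein folding and NRF2 targets. DUOX2 was among the largest falls with a mean of at least 5 CPM, and ALDH1A1 rose from 2913, 2958 and 3017 CPM to 5641, 6039.5 and 5995 CPM. The same directions held for these groups without replicate 1. In bulk RNA, fewer cells that express a gene and less RNA per cell cannot be told apart.

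A gene was called when the quasi-likelihood test of edgeR, after Benjamini-Hochberg adjustment, gave an adjusted p under 0.05. Fold changes are log2 values of LINC00996 minus control, followed by the value without replicate 1. The ± value is a standard error worked back from the fold change and the test statistic, with 3 libraries per group. "Rose" or "fell" is written of called genes. Genes named for their rank among all genes or among non-coding genes had to show no overlap between the groups. DUOX2, DUOXA2, RHCG, DUSP5, IDO1, IL4I1, HCP5, ALDH3A1 and ZWINT are among them. For such genes a statement that the groups lie apart repeats the choice. In 6 libraries 3588 of 16097 genes were called (22.3%), 1722 higher (10.7%) and 1866 lower (11.6%). In the 5 libraries without replicate 1 the test called 5481 of 16508 (33.2%), 2621 higher (15.9%) and 2860 lower (17.3%). The larger side turns with the scaling: library size alone gave 2006 higher and 1669 lower (3143 and 2493 without replicate 1), and a gene length offset 1867 and 1767 (2868 and 2610.0). The median log2 fold change over all genes tested was 0.01 and 0.00. The common biological coefficient of variation, a measure of the spread between replicates, was 0.124 in 6 libraries and 0.0665 in 5. Without control replicate 1, 2 or 3 the 6-library count became 2094, 1925 and 2162.

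Of these calls, 3455 genes were called in the same direction in both fits, 1617 higher and 1838 lower, and 0 were called in opposite directions. A further 133 were called with replicate 1 alone, 105 of them higher. Genes called in both fits had a median GC content of 49.1%, a median transcript of 3321 bases and a median level of 38.001 CPM. Those called with replicate 1 alone were richer in GC (54.5%), shorter (1960 bases) and scarcer (3.96 CPM). Of genes tested in both fits, 1973 were called without it alone, and of 411 genes tested only there 53 were called. The 1973 had a median GC content of 47.1%, transcripts of 4023 bases and 46.7 CPM.

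**Figure D1:**
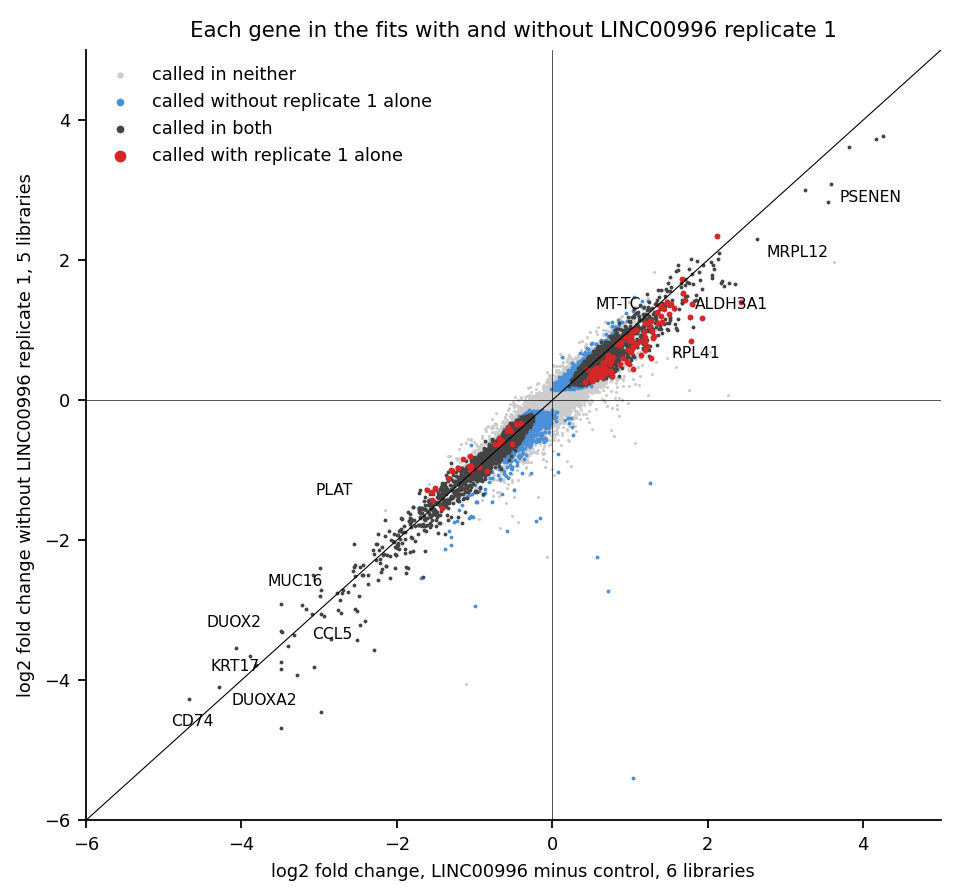
Each point is a gene, with its log2 fold change (LINC00996 minus control) in 6 libraries on the horizontal axis and without LINC00996 replicate 1 on the vertical axis, coloured by the fits that called it. LINC00996 itself lies outside the axes and is left out, and the line marks equal values.

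Of the calls that rest on replicate 1, the 5 with the smallest adjusted p were named by rule. COX6B1, a subunit of cytochrome c oxidase, was at 112, 98.2 and 61.6 CPM in the controls and 202, 177 and 166 CPM with LINC00996. The groups did not overlap, but the controls were spread widely and edgeR with Benjamini-Hochberg adjustment gave adjusted p = 0.00189 with replicate 1 and 0.118 without it (1.005 ± 0.18, and 0.92 without replicate 1). Its 7 named pseudogene copies make its level uncertain. ATP5MC2, the c subunit of ATP synthase, went from 0.00135 to 0.0607 in edgeR with Benjamini-Hochberg adjustment (0.84 ± 0.14, and 0.80 without replicate 1). For the ribosomal gene RPL41 the values in edgeR with Benjamini-Hochberg adjustment were 0.00826 and 0.094 (1.14 ± 0.23, and 0.85 without replicate 1), and replicate 1 was its highest library at 897 CPM, above 572 and 509.7 CPM. The mitochondrial cysteine tRNA MT-TC (1.53 ± 0.21, and 1.37 without replicate 1) and the brain-development gene C12orf57 (1.40 ± 0.25, and 1.20 without replicate 1) were also called with replicate 1 and not without it. C12orf57 shares 40.8% of its exon bases with genes on the opposite strand, and since the strand setting of the counting is not given in the sources used here, its counts are uncertain.

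Among genes called in 1 of the fits, the estimate of 21 changed sign when replicate 1 was left out. 0 of the 21 were called in 6 libraries, while without replicate 1 the edgeR test called 20 lower and 1 higher, and 5 were processed pseudogenes. Examples, named after their values were seen, show the pattern. RPS23, a protein of the small ribosomal subunit, had 93.8, 105 and 111 CPM in control replicates 1 to 3, 211 CPM in LINC00996 replicate 1, and 80.1 and 78.3 CPM in LINC00996 replicates 2 and 3. RPLP2, a protein of the ribosomal stalk, had 256, 274 and 297 CPM in control replicates 1 to 3, 475 CPM in LINC00996 replicate 1, and 239.7 and 214 CPM in LINC00996 replicates 2 and 3. TNFRSF12A, the receptor for the cytokine TWEAK, had 76.7, 70.03 and 71.5 CPM in control replicates 1 to 3, 130.2 CPM in LINC00996 replicate 1, and 62.1 and 59.4 CPM in LINC00996 replicates 2 and 3. In each case replicate 1 lay above the controls and its fellow replicates lay below them.

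The interferon-stimulated, cytokine, NF-kB, antigen presentation, oxidative phosphorylation and cytosolic ribosome lists together held 350 of the tested genes (2.17%), and 224 of these were called (64%). Outside them 3364 of 15747 were called (21.4%), 1625 higher and 1739 lower. Among calls with a log2 fold change of at least 1 in size, 79 lay inside these lists and 680 outside, of which 258 were higher and 422 lower. Without replicate 1, 253 of 352 were called inside (71.9%) and 5228 of 16156 outside (32.4%, 2517 higher and 2711 lower), and 73 and 715 at the larger size. The genes outside are described by role, and 2809 called genes belonged to none of the lists.

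In summed level, the 1866 genes called lower held 269831, 266133 and 264332 CPM in control replicates 1 to 3 and 168965, 169503 and 175830.0 CPM in LINC00996 replicates 1 to 3. The 1722 genes called higher held 151996, 152771 and 150372 CPM and 232316, 216312 and 213631 CPM. Replicate 1 had the highest sum of the genes called higher and the lowest of those called lower. Genes with large shifts in mean CPM were picked after their values were seen. Fibronectin, FN1, a matrix glycoprotein, had 7227, 7161 and 6899 CPM in the controls and 4142, 4424 and 4541 CPM with LINC00996 (−0.70 ± 0.07, and −0.66 without replicate 1). IGFBP3, which binds insulin-like growth factors, had 4741, 4480.2 and 4136 CPM in the controls and 2121, 2165 and 2220.5 CPM with LINC00996 (−1.04 ± 0.08, and −1.02 without replicate 1). PTGS2, the inducible cyclooxygenase of prostaglandin synthesis, had 2178, 2190.1 and 2115 CPM in the controls and 834, 1147 and 1208 CPM with LINC00996 (−1.02 ± 0.12, and −0.87 without replicate 1). The groups did not overlap for these 3 genes. The largest shift upward outside the mitochondrial genome was of ALDH1A1.

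Mucins, the glycoproteins of the epithelial surface and its mucus, fell or were not called. Of the mucin list 0 rose and 7 fell of the 12 tested (0 and 8 without replicate 1), with a median log2 fold change of −0.61 (−0.63 without replicate 1), beside 10.7% of all genes higher and 11.6% lower (15.9% and 17.3% without replicate 1). Counts under 5 are in general not followed through the removal of single libraries. MUC16, a large membrane mucin shed as the CA125 antigen, fell (−2.69 ± 0.10, and −2.71 without replicate 1). MUC2 (ENSG00000198788, chr11:1074875-1110511), a gel-forming mucin of the gut, was at 13.9, 12.3 and 12.3 CPM in the controls and 3.93, 3.01 and 2.84 CPM with LINC00996. The groups did not overlap, and edgeR with Benjamini-Hochberg adjustment gave adjusted p = 1.49e-05 (−1.97 ± 0.17, and −2.13 without replicate 1). MUC1 (−1.25 ± 0.15, and −1.29 without replicate 1) and MUC13 (−0.75 ± 0.10, and −0.69 without replicate 1), both membrane mucins of glandular epithelium, fell less. Of the complement and acute-phase list 2 rose and 15 fell of the 28 tested (4 and 17 without replicate 1), with a median log2 fold change of −0.71 (−0.80 without replicate 1), beside 10.7% of all genes higher and 11.6% lower (15.9% and 17.3%). C3 (ENSG00000125730, chr19:6677704-6730562), the central protein of the complement cascade, was at 3463, 3327 and 3253 CPM in the controls and 1572, 1387 and 1456 CPM with LINC00996, with every LINC00996 library under every control (−1.19 ± 0.08, and −1.23 without replicate 1). SERPING1, which inhibits the complement proteases C1r and C1s, fell (−2.43 ± 0.17, and −2.35 without replicate 1). C1S, one of those proteases, fell too (−1.07 ± 0.08, and −1.04 without replicate 1). CD55, which shields cells from their own complement, was at 999.9, 1012 and 1010.3 CPM in the controls and 332, 403 and 419 CPM with LINC00996 (−1.39 ± 0.10, and −1.29 without replicate 1). The complement genes called lower thus included activators and inhibitors alike.

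The dual oxidase DUOX2 (ENSG00000140279, chr15:45092650-45114344), which releases hydrogen peroxide at the apical surface of airway and thyroid epithelium, was at 25.2, 21.7 and 19.8 CPM in the controls and 1.49, 2.37 and 2.13 CPM with LINC00996. Its maturation factor DUOXA2 (ENSG00000140274, chr15:45114321-45118421) was at 7.14, 5.54 and 5.70 CPM in the controls and 0.221, 0.0641 and 0.602 CPM with LINC00996. The LINC00996 libraries lay far below the controls for both genes. For DUOX2, edgeR with Benjamini-Hochberg adjustment gave adjusted p = 6.38e-07 (−3.48 ± 0.19, and −3.30 without replicate 1). For DUOXA2, edgeR with Benjamini-Hochberg adjustment gave 2.53e-05 (−4.29 ± 0.41, and −4.09 without replicate 1), though 28.6% of its exon bases overlap genes on the opposite strand, so its counts are less sure. Against the AP001189.3 libraries the LINC00996 libraries were lower by similar amounts, with log2 differences of −3.60 for DUOX2 and −4.64 for DUOXA2.

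Among genes of epithelial structure, more fell than rose. Of keratins, desmosomes and tight junctions 2 rose and 7 fell of the 38 tested (4 and 14 without replicate 1), with a median log2 fold change of −0.14 (−0.13 without replicate 1), beside 10.7% of all genes higher and 11.6% lower (15.9% and 17.3%). KRT17, a keratin of injured and basal epithelium, was at 5.24, 4.60 and 4.60 CPM in the controls and 0.554, 0.385 and 0.328 CPM with LINC00996 (−3.48 ± 0.29, and −3.73 without replicate 1), and its 8 named pseudogene copies make its counts less sure. CDH1, the E-cadherin of adherens junctions, was at 324, 325 and 315 CPM in the controls and 163, 173 and 183 CPM with LINC00996 (−0.89 ± 0.09, and −0.85 without replicate 1). Both genes were lower in each LINC00996 library than in each control. CLDN4, a tight junction claudin (−0.95 ± 0.15, and −1.11 without replicate 1), and TJP3, a junction scaffold (−0.70 ± 0.11, and −0.80 without replicate 1), fell as well. RHCG, an ammonia channel of epithelia, was at 99.2, 85.8 and 97.8 CPM in the controls and 25.3, 22.1 and 25.4 CPM with LINC00996, without overlap (−1.96 ± 0.11, and −1.98 without replicate 1).

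Genes of adhesion and matrix turnover mostly fell where they were called. Of collagens, laminins and integrins 2 rose and 21 fell of the 53 tested (5 and 26 without replicate 1), with a median log2 fold change of −0.21 (−0.27 without replicate 1), beside 10.7% of all genes higher and 11.6% lower (15.9% and 17.3%). ITGA5, which pairs with integrin beta 1 to form the fibronectin receptor, was at 366, 348 and 333 CPM in the controls and 175, 146 and 159.6 CPM with LINC00996 (−1.12 ± 0.10, and −1.19 without replicate 1). ITGA2, the collagen-binding alpha 2 integrin (−1.04 ± 0.11, and −0.92 without replicate 1), and the heparan sulfate proteoglycan SDC4 (−1.13 ± 0.10, and −1.20 without replicate 1) fell beside it. LAMB3, a chain of laminin 332 in basement membranes, fell (−0.83 ± 0.09, and −0.91 without replicate 1). Of extracellular proteases and their inhibitors 5 rose and 17 fell of the 44 tested (7 and 25 without replicate 1), with a median log2 fold change of −0.31 (−0.31 without replicate 1). PLAT, the tissue-type plasminogen activator, was at 51.6, 51.3 and 41.3 CPM in the controls and 16.4, 15.4 and 17.3 CPM with LINC00996. No LINC00996 library reached the lowest control, and edgeR with Benjamini-Hochberg adjustment gave adjusted p = 7.81e-06 (−1.55 ± 0.12, and −1.55 without replicate 1). PLAUR, the receptor of the urokinase-type activator, fell with it (−1.02 ± 0.09, and −1.07 without replicate 1). CTSS, a protease of endosomes that is also secreted, was at 394, 401 and 417 CPM in the controls and 125, 152 and 166 CPM with LINC00996 (−1.45 ± 0.11, and −1.35 without replicate 1).

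Of the TGF-beta and epithelial-mesenchymal transition list 2 rose and 9 fell of the 31 tested (3 and 13 without replicate 1), with a median log2 fold change of −0.13 (−0.16 without replicate 1), beside 10.7% of all genes higher and 11.6% lower (15.9% and 17.3%). BMP2, a ligand of the bone morphogenetic protein family, was at 18.6, 17.8 and 15.01 CPM in the controls and 6.70, 7.18 and 7.0005 CPM with LINC00996, and the groups did not overlap (−1.30 ± 0.14, and −1.27 without replicate 1). The epithelial marker CDH1 and the matrix gene FN1, whose levels are opposed in such a transition, both fell. Of the Hippo pathway and its targets 0 rose and 5 fell of the 22 tested (1 and 9 without replicate 1), with a median log2 fold change of −0.21 (−0.13 without replicate 1). The called members included pathway components and a target. LATS2, a kinase that restrains YAP (−0.63 ± 0.11, and −0.63 without replicate 1), and SAV1, a scaffold of the upstream kinases (−0.73 ± 0.10, and −0.67 without replicate 1), fell. The target F3, the tissue factor that starts coagulation, was at 14.2, 13.9 and 12.2 CPM in the controls and 4.15, 5.39 and 6.84 CPM with LINC00996 (−1.30 ± 0.18, and −1.13 without replicate 1).

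The list of growth factor ligands and receptors also holds receptor substrates and binding proteins of insulin-like growth factors. Of its 36 tested members 3 rose and 14 fell (3 and 16 without replicate 1), beside 10.7% of all genes higher and 11.6% lower (15.9% and 17.3%). The median log2 fold change was −0.14 (−0.20 without replicate 1). With 1 library left out, the count lower was 7 without control replicate 2 and 8 without LINC00996 replicate 2. IGFBP1, a binding protein of insulin-like growth factors, fell (−1.83 ± 0.09, and −1.76 without replicate 1). EREG, the ERBB ligand epiregulin, was at 322, 343 and 329 CPM in the controls and 145, 193 and 217 CPM with LINC00996 (−0.84 ± 0.13, and −0.69 without replicate 1). Replicate 1 had the lowest EREG level, and the groups did not overlap. VEGFC, which drives lymphatic growth, fell (−0.65 ± 0.10, and −0.61 without replicate 1). Of MAPK feedback and immediate-early genes 0 rose and 19 fell of the 35 tested (0 and 21 without replicate 1), with a median log2 fold change of −0.42 (−0.49 without replicate 1). DUSP5 (ENSG00000138166, chr10:110497838-110511544), a nuclear phosphatase that switches ERK off and is itself induced by ERK, was at 249.7, 234 and 244 CPM in the controls and 64.1, 71.7 and 76.02 CPM with LINC00996. Every LINC00996 library lay below every control, and edgeR with Benjamini-Hochberg adjustment gave adjusted p = 6.38e-07 (−1.78 ± 0.10, and −1.71 without replicate 1). DUSP16, a phosphatase of JNK and p38, fell (−1.04 ± 0.10, and −0.98 without replicate 1). KLF4, a transcription factor of epithelial differentiation, was at 75.6, 69.6 and 72.4 CPM in the controls and 34.4, 35.5 and 35.7 CPM with LINC00996 (−1.04 ± 0.10, and −1.03 without replicate 1). IER3, an early-response survival gene, fell (−0.84 ± 0.08, and −0.87 without replicate 1), though 26.5% of its exon bases overlap an antisense gene, which leaves its counts less sure.

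Of hypoxia-inducible genes 2 rose and 14 fell of the 24 tested (2 and 15 without replicate 1), with a median log2 fold change of −0.53 (−0.54 without replicate 1), beside 10.7% of all genes higher and 11.6% lower (15.9% and 17.3%). The label names genes that low oxygen induces, and these cells were not labelled as hypoxic. SLC2A1, the glucose transporter GLUT1, was at 530.4, 483 and 466 CPM in the controls and 302, 285 and 300.1 CPM with LINC00996 (−0.74 ± 0.09, and −0.75 without replicate 1). PLIN2 (ENSG00000147872, chr9:19108375-19149290), which coats lipid droplets, was at 198, 186 and 189.6 CPM in the controls and 78.9, 95.5 and 99.1 CPM with LINC00996 (−1.07 ± 0.10, and −0.97 without replicate 1). ANGPTL4, a secreted inhibitor of lipoprotein lipase, fell (−1.004 ± 0.09, and −1.04 without replicate 1). CA12, a membrane carbonic anhydrase, fell (−0.58 ± 0.08, and −0.57 without replicate 1). Of glycolysis and glucose transport 3 rose and 5 fell of the 29 tested (5 and 8 without replicate 1), with a median log2 fold change of −0.01 (−0.04 without replicate 1), and the median turns positive with scaling by library size alone or with a gene length offset. The number lower was 2 without control replicate 1, 2 without control replicate 2, 2 without control replicate 3 and 3 without LINC00996 replicate 2. HK2 of this list, the hexokinase that starts glycolysis, was at 56.3, 51.01 and 50.5 CPM in the controls and 18.9, 19.2 and 20.9 CPM with LINC00996, without overlap (−1.42 ± 0.11, and −1.38 without replicate 1). SLC2A1, which fell, is also a member of the glycolysis list. LDHB, a lactate dehydrogenase subunit, rose (0.83 ± 0.12, and 0.76 without replicate 1), although 33.4% of its exon bases are shared with another gene on the same strand, so its counts are uncertain. PFKFB3, which makes the activator of phosphofructokinase, rose (0.48 ± 0.09, and 0.44 without replicate 1).

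Of cholesterol and fatty acid synthesis 9 rose and 5 fell of the 42 tested (11 and 10 without replicate 1), with a median log2 fold change of 0.04 (0.01 without replicate 1), beside 10.7% of all genes higher and 11.6% lower (15.9% and 17.3%). These counts rest on few libraries: the number higher was 5 without control replicate 1, 3 without control replicate 2 and 4 without control replicate 3, and the number lower was 3 without control replicate 1, 2 without control replicate 2, 2 without control replicate 3 and 8 without LINC00996 replicate 3. FADS1, a desaturase of polyunsaturated fatty acids, was at 246, 243 and 247 CPM in the controls and 343, 311 and 316 CPM with LINC00996 and rose (0.40 ± 0.08, and 0.36 without replicate 1).

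Of the TNF superfamily, death receptors and caspases 0 rose and 24 fell of the 50 tested (3 and 30 without replicate 1), with a median log2 fold change of −0.39 (−0.45 without replicate 1), beside 10.7% of all genes higher and 11.6% lower (15.9% and 17.3%). TNFRSF1B (ENSG00000028137, chr1:12167003-12209228), the TNF receptor 2, was at 58.3, 51.3 and 45.1 CPM in the controls and 9.58, 6.73 and 8.64 CPM with LINC00996 (−2.63 ± 0.15, and −2.73 without replicate 1). TNFSF10, the death ligand TRAIL, was at 150.2, 147 and 162 CPM in the controls and 39.9, 49.6 and 58.6 CPM with LINC00996 (−1.63 ± 0.13, and −1.498 without replicate 1). No library of one group reached the other for either gene. The inhibitors of apoptosis BIRC3 (−1.44 ± 0.13, and −1.29 without replicate 1) and BCL2A1 (−1.70 ± 0.15, and −1.61 without replicate 1) fell too, so that genes for and against cell death moved the same way. FAS, a death receptor and p53 target, fell (−0.66 ± 0.13, and −0.54 without replicate 1). Of the TRIM ubiquitin ligases 2 rose and 8 fell of the 45 tested (3 and 14 without replicate 1), with a median log2 fold change of −0.0041 (−0.05 without replicate 1), and this median near 0 turns positive with scaling by library size alone or with a gene length offset. Leaving out 1 library, the count lower became 5 without control replicate 2. TRIM31, a ligase that acts on the adaptor MAVS, fell (−2.16 ± 0.11, and −2.19 without replicate 1). TRIM22, an antiviral ligase, fell (−1.26 ± 0.11, and −1.16 without replicate 1), as did TRIM8 (−0.68 ± 0.10, and −0.78 without replicate 1), a regulator of cytokine signalling, and TRIM5 (−0.61 ± 0.09, and −0.57 without replicate 1), which restricts retroviruses.

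Among enzymes of tryptophan and aromatic amino acids, IDO1, IL4I1 and WARS fell, and these 3 were grouped after their values were seen. IDO1, which degrades tryptophan to kynurenine, was at 96.8, 86.3 and 105 CPM in the controls and 16.1, 14.4 and 19.03 CPM with LINC00996 (−2.54 ± 0.13, and −2.51 without replicate 1). IL4I1 (ENSG00000104951, chr19:49889654-49929539), a secreted oxidase of aromatic amino acids, was at 27.97, 29.2 and 28.1 CPM in the controls and 5.59, 5.58 and 4.54 CPM with LINC00996 (−2.44 ± 0.14, and −2.49 without replicate 1). WARS, the cytosolic synthetase that loads tryptophan onto its tRNA, was at 396, 358 and 359 CPM in the controls and 119, 118 and 140.1 CPM with LINC00996 (−1.56 ± 0.10, and −1.52 without replicate 1). For each gene every LINC00996 library was lower than every control, which for IDO1 and IL4I1 was a condition of their naming. The lncRNA HCP5, which lies among the HLA class I genes, was at 21.2, 21.3 and 25.4 CPM in the controls and 5.26, 5.001 and 4.76 CPM with LINC00996 (−2.18 ± 0.14, and −2.21 without replicate 1).

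Genes of the NRF2 programme mostly rose where they were called. Of NRF2 targets 17 rose and 2 fell of the 38 tested (24 and 4 without replicate 1), with a median log2 fold change of 0.28 (0.33 without replicate 1), beside 10.7% of all genes higher and 11.6% lower (15.9% and 17.3%). ALDH3A1 (ENSG00000108602, chr17:19737984-19748943), which oxidises aldehydes from lipid peroxidation, was at 527, 516 and 553 CPM in the controls and 2215, 1485 and 1369 CPM with LINC00996. Replicate 1 was the highest, and the groups were still apart without it (1.67 ± 0.15, and 1.42 without replicate 1). The adjusted p of edgeR with Benjamini-Hochberg adjustment was 1.85e-05 with replicate 1 and 1.46e-17 without it. AC005722.3, an antisense transcript that overlaps ALDH3A1, rose as well (1.5002 ± 0.28, and 1.34 without replicate 1), and 21.97% of its exon bases are shared with ALDH3A1 on the opposite strand, so its counts may hold reads of that gene. AKR1B10, an aldo-keto reductase of retinal and lipid aldehydes, was at 724, 705 and 748 CPM in the controls and 1395, 1392 and 1370.5 CPM with LINC00996 (0.93 ± 0.08, and 0.93 without replicate 1). PRDX1, a peroxiredoxin, rose (0.59 ± 0.08, and 0.59 without replicate 1), with 24.9% of its exon bases overlapped by a gene on the opposite strand and its counts uncertain to that extent. Of drug and retinoid metabolism 9 rose and 8 fell of the 35 tested (12 and 11 without replicate 1), with a median log2 fold change of 0.01 (−0.01 without replicate 1), and this median near 0 turns negative with DESeq2. Removal of 1 library made the count higher 5 without control replicate 1. ALDH1A1, which makes retinoic acid, rose (0.99 ± 0.07, and 1.02 without replicate 1), and ALDH7A1, which handles lysine breakdown and osmotic stress, rose (1.07 ± 0.09, and 1.05 without replicate 1). RARRES3, a retinoid-induced phospholipase gene, was at 61.4, 63.8 and 66.1 CPM in the controls and 20.2, 19.8 and 20.8 CPM with LINC00996 and fell (−1.65 ± 0.10, and −1.65 without replicate 1).

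Those genes of the dividing cell that were called rose, with 1 exception. Of DNA replication 26 rose and 0 fell of the 49 tested (33 and 0 without replicate 1), with a median log2 fold change of 0.43 (0.39 without replicate 1), beside 10.7% of all genes higher and 11.6% lower (15.9% and 17.3%). With 1 library left out, the count higher was 16 without control replicate 1 and 14 without control replicate 2. MCM6 (ENSG00000076003, chr2:135839626-135876426), a subunit of the helicase that opens replication origins, was at 37.1, 37.5 and 38.4 CPM in the controls and 59.7, 68.4 and 69.9 CPM with LINC00996. The groups did not overlap, and edgeR with Benjamini-Hochberg adjustment gave adjusted p = 0.000221 (0.81 ± 0.10, and 0.88 without replicate 1). GINS1 (0.77 ± 0.11, and 0.84 without replicate 1) and GINS2 (0.80 ± 0.12, and 0.76 without replicate 1), which join that helicase at the fork, rose with it. Of mitosis and kinetochore genes 39 rose and 1 fell of the 58 tested (48 and 1 without replicate 1), with a median log2 fold change of 0.46 (0.53 without replicate 1). The number higher was 23 without control replicate 1 and 23 without control replicate 2. ZWINT, a kinetochore protein, was at 30.2, 30.7 and 27.5 CPM in the controls and 75.2, 65.1 and 64.9 CPM with LINC00996 (1.21 ± 0.11, and 1.14 without replicate 1). PLK1, the kinase that drives entry into mitosis, was at 38.3, 40.9 and 37.3 CPM in the controls and 73.3, 69.4 and 69.2 CPM with LINC00996 (0.86 ± 0.10, and 0.84 without replicate 1). Each LINC00996 library was above each control for both. BIRC5, the survivin of the chromosomal passenger complex (0.99 ± 0.10, and 0.94 without replicate 1), KIF20A, a kinesin of cytokinesis (0.89 ± 0.10, and 0.90 without replicate 1), and PIMREG, a gene of mitosis (1.47 ± 0.14, and 1.39 without replicate 1), rose.

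Of p53 targets 5 rose and 4 fell of the 32 tested (9 and 9 without replicate 1), with a median log2 fold change of 0.11 (0.15 without replicate 1), beside 10.7% of all genes higher and 11.6% lower (15.9% and 17.3%). Leaving out 1 library, the count higher became 3 without control replicate 1 and 3 without control replicate 2, and the 4 lower became 1 without control replicate 1, 1 without control replicate 2, 1 without control replicate 3 and 2 without LINC00996 replicate 2. TP53I3, a quinone oxidoreductase, was at 16.9, 13.7 and 15.4 CPM in the controls and 51.7, 39.9 and 38.4 CPM with LINC00996 (1.4998 ± 0.14, and 1.35 without replicate 1). FDXR, which feeds electrons to mitochondrial cytochromes P450, rose (0.81 ± 0.15, and 0.63 without replicate 1). FAS, given above with the death receptors, is a member of this list that fell (−0.66 ± 0.13, and −0.54 without replicate 1). BAX, which opens the outer mitochondrial membrane in apoptosis, was at 60.4, 56.99 and 56.5 CPM in the controls and 122, 80.9 and 76.8 CPM with LINC00996 (0.69 ± 0.16, and 0.44 without replicate 1). Replicate 1 was well above its fellow replicates for BAX, and the groups did not overlap without it either.

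Genes for mitochondrial translation, splicing and protein folding mostly rose where they were called. Of mitochondrial ribosomal proteins 30 rose and 0 fell of the 77 tested (36 and 2 without replicate 1), with a median log2 fold change of 0.29 (0.28 without replicate 1), beside 10.7% of all genes higher and 11.6% lower (15.9% and 17.3%). Removal of 1 library made the count higher 15 without control replicate 1, 14 without control replicate 2 and 19 without control replicate 3. MRPL24 (ENSG00000143314, chr1:156737303-156741590), a protein of the large mitochondrial subunit, was at 22.1, 18.4 and 13.8 CPM in the controls and 77.7, 49.9 and 44.96 CPM with LINC00996 (1.67 ± 0.21, and 1.39 without replicate 1). Replicate 1 was the highest, and the groups did not overlap with or without it. MRPS16 of the small subunit rose (0.69 ± 0.11, and 0.60 without replicate 1). Of the Sm and LSm proteins, which form the cores of spliceosomal RNA particles, 15 rose and 0 fell of the 32 tested (17 and 0 without replicate 1), with a median log2 fold change of 0.32 (0.31 without replicate 1). With 1 library left out, the count higher was 8 without control replicate 1, 7 without control replicate 2 and 9 without control replicate 3. SNRPD2, a core Sm protein, was at 104, 95.9 and 102 CPM in the controls and 179.8, 148 and 129.8 CPM with LINC00996 (0.60 ± 0.12, and 0.47 without replicate 1). LSM7 of the U6 particle rose (1.51 ± 0.28, and 1.20 without replicate 1). Of chaperones 21 rose and 1 fell of the 46 tested (24 and 2 without replicate 1), with a median log2 fold change of 0.24 (0.28 without replicate 1). The number higher was 12 without control replicate 1, 11 without control replicate 2 and 13 without control replicate 3. HSPE1, the co-chaperonin of the mitochondrial folding chamber, rose (1.52 ± 0.12, and 1.55 without replicate 1), and its 26 named pseudogene copies make its level uncertain. CCT7, a subunit of the cytosolic chaperonin that folds actin and tubulin, was at 213, 225 and 217 CPM in the controls and 340.2, 320.1 and 321 CPM with LINC00996 (0.58 ± 0.08, and 0.56 without replicate 1). HSP90AA1, the inducible cytosolic HSP90, was at 881, 913 and 957 CPM in the controls and 1210.3, 1371 and 1471 CPM with LINC00996 (0.56 ± 0.09, and 0.63 without replicate 1). Of the citric acid cycle and pyruvate dehydrogenase 11 rose and 1 fell of the 28 tested (17 and 1 without replicate 1), with a median log2 fold change of 0.24 (0.27 without replicate 1). Leaving out 1 library, the count higher became 5 without control replicate 1, 4 without control replicate 2, 6 without control replicate 3 and 7 without LINC00996 replicate 2. SUCLG2, a subunit of succinyl-CoA ligase, rose (0.70 ± 0.12, and 0.81 without replicate 1), and SDHC, a membrane anchor of succinate dehydrogenase, rose (0.54 ± 0.10, and 0.55 without replicate 1).

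Of translation factors 13 rose and 3 fell of the 56 tested (27 and 3 without replicate 1), with a median log2 fold change of 0.16 (0.19 without replicate 1), beside 10.7% of all genes higher and 11.6% lower (15.9% and 17.3%). Removal of 1 library made the count higher 7 without control replicate 1, 6 without control replicate 2 and 8 without control replicate 3. EIF4B, which aids the helicase that unwinds mRNA leaders, was at 272, 259.5 and 248 CPM in the controls and 441, 458 and 454 CPM with LINC00996 (0.79 ± 0.08, and 0.81 without replicate 1), though its 9 named pseudogene copies make its level uncertain. EIF4H, a relative with the same role, rose (0.74 ± 0.11, and 0.61 without replicate 1). Of aminoacyl-tRNA synthetases 9 rose and 2 fell of the 37 tested (14 and 4 without replicate 1), with a median log2 fold change of 0.22 (0.20 without replicate 1), and WARS was one of those that fell. With 1 library left out, the count higher was 2 without control replicate 1, 2 without control replicate 2, 4 without control replicate 3 and 4 without LINC00996 replicate 2. The glutaminyl synthetase QARS rose (0.50 ± 0.10, and 0.42 without replicate 1). Of proteasome subunits 7 rose and 1 fell of the 41 tested (13 and 3 without replicate 1), with a median log2 fold change of 0.13 (0.11 without replicate 1). The number higher was 2 without control replicate 1, 1 without control replicate 2 and 3 without control replicate 3. The subunit that fell was PSME1, part of the activator that interferon gamma induces, at 288, 319.9 and 347 CPM in the controls and 241, 194 and 206 CPM with LINC00996 (−0.57 ± 0.11, and −0.67 without replicate 1). PSMC5, an ATPase of the proteasome base, rose (0.47 ± 0.10, and 0.39 without replicate 1). Of ATF4 targets and the unfolded protein response 5 rose and 9 fell of the 42 tested (5 and 17 without replicate 1), with a median log2 fold change of −0.13 (−0.09 without replicate 1). Leaving out 1 library, the count higher became 3 without control replicate 2 and 3 without control replicate 3. ERN1, the stress sensor IRE1 of the endoplasmic reticulum, was at 167, 159 and 157 CPM in the controls and 95.8, 95.9 and 93.96 CPM with LINC00996 (−0.76 ± 0.09, and −0.76 without replicate 1). XBP1, the mRNA that IRE1 splices, fell (−0.59 ± 0.09, and −0.56 without replicate 1), as did the pseudokinase gene TRIB3 (−0.57 ± 0.09, and −0.62 without replicate 1), while PSAT1 of serine synthesis rose (0.59 ± 0.10, and 0.64 without replicate 1).

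The medians of large families with mixed roles lay near that of all genes, while chromatin regulators were called lower in 19.4% and higher in 2.99% of those tested. Of histone and chromatin regulators 2 rose and 13 fell of the 67 tested (7 and 24 without replicate 1), with a median log2 fold change of −0.05 (−0.09 without replicate 1), beside 10.7% of all genes higher and 11.6% lower (15.9% and 17.3%), and this median near 0 turns positive with a gene length offset. Removal of 1 library made the count lower 5 without control replicate 1, 5 without control replicate 2 and 6 without LINC00996 replicate 2. KDM6A, which removes methyl groups from histone H3 lysine 27, was at 60.6, 60.8 and 70.6 CPM in the controls and 30.6, 39.8 and 42.1 CPM with LINC00996 (−0.77 ± 0.13, and −0.64 without replicate 1), and the remodeller CHD3 rose (0.56 ± 0.10, and 0.45 without replicate 1). Of numbered zinc finger genes 13 rose and 29 fell of the 397 tested (19 and 46 without replicate 1), with a median log2 fold change of −0.07 (−0.06 without replicate 1). With 1 library left out, the count higher was 6 without control replicate 1, 7 without control replicate 2, 8 without control replicate 3 and 7 without LINC00996 replicate 2, and the number lower was 11 without control replicate 1, 11 without control replicate 2, 12 without control replicate 3 and 16 without LINC00996 replicate 2. ZNF267 fell (−0.83 ± 0.12, and −0.79 without replicate 1), and so did ZNF766 (−0.75 ± 0.12, and −0.65 without replicate 1), both KRAB zinc finger genes. Of numbered solute carriers 25 rose and 38 fell of the 238 tested (39 and 56 without replicate 1), with a median log2 fold change of −0.01 (−0.02 without replicate 1), and this median near 0 turns positive with scaling by library size alone or with a gene length offset. The number higher was 13 without control replicate 1, 11 without control replicate 2, 15 without control replicate 3 and 16 without LINC00996 replicate 2. SLC6A14 (ENSG00000268104, chrX:116436622-116461458), an importer of neutral and cationic amino acids, was at 61.5, 62.2 and 54.6 CPM in the controls and 12.1, 14.6 and 16.95 CPM with LINC00996 (−2.03 ± 0.14, and −1.91 without replicate 1). SLC39A8, which imports zinc and manganese, was at 566, 594 and 599 CPM in the controls and 206, 232 and 254 CPM with LINC00996 (−1.35 ± 0.10, and −1.27 without replicate 1). In both, no LINC00996 library reached the lowest control. SLC15A3, a lysosomal transporter of histidine and small peptides, fell (−1.58 ± 0.16, and −1.63 without replicate 1). Of lysosome and autophagy genes 5 rose and 9 fell of the 52 tested (7 and 19 without replicate 1), with a median log2 fold change of −0.12 (−0.11 without replicate 1). Leaving out 1 library, the count higher became 3 without control replicate 2 and 2 without control replicate 3. NPC1, which exports cholesterol from lysosomes, was at 146, 144 and 143 CPM in the controls and 81.4, 79.9 and 81.8 CPM with LINC00996 (−0.83 ± 0.09, and −0.83 without replicate 1). The autophagy receptor OPTN fell (−0.68 ± 0.09, and −0.63 without replicate 1), while ATP6V1G1, a subunit of the lysosomal proton pump, rose (0.74 ± 0.10, and 0.76 without replicate 1), a level made uncertain by 5 named pseudogene copies.

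**Figure D2:**
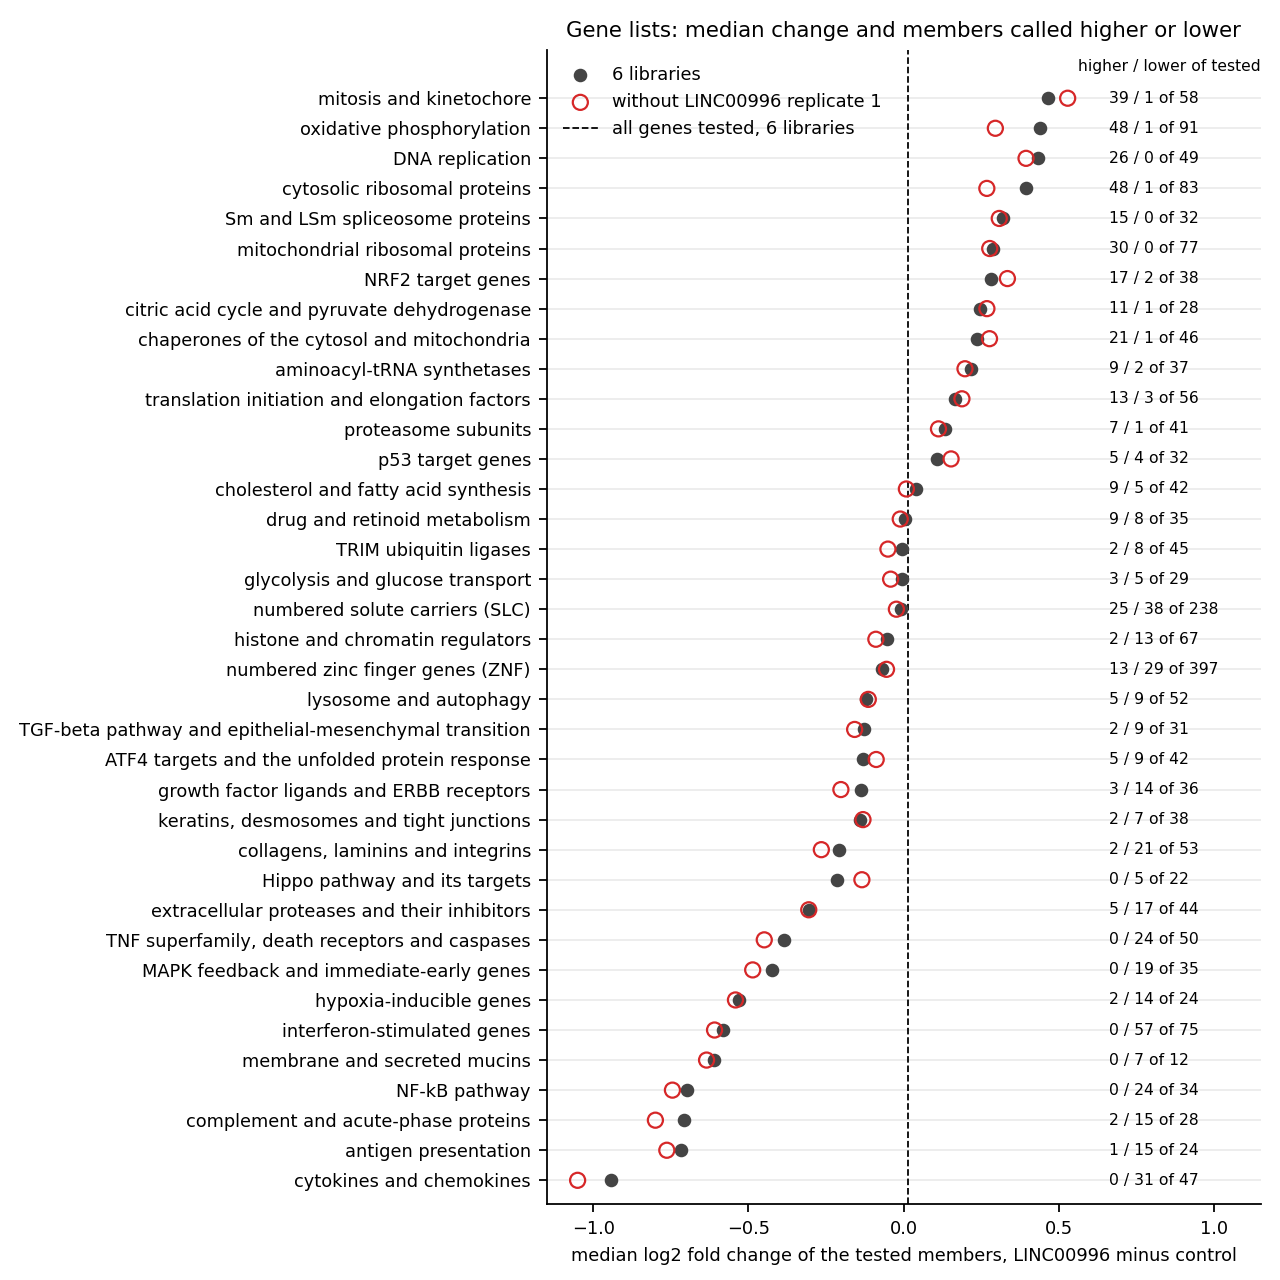
For each gene list, the filled point is the median log2 fold change of its tested members in 6 libraries and the open point the median without LINC00996 replicate 1, with members called higher and lower of those tested at the right. The dashed line is the median of all genes tested, and the medians of glycolysis, solute carriers, TRIM ligases, chromatin regulators and drug metabolism, all near 0, change sign under another scaling or model.

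In the remaining 6 lists, those of immune signalling, respiration and the cytosolic ribosome, the counts were as follows. Of interferon-stimulated genes 0 rose and 57 fell of the 75 tested (2 and 63 without replicate 1), with a median log2 fold change of −0.58 (−0.61 without replicate 1), beside 10.7% of all genes higher and 11.6% lower (15.9% and 17.3%). Of cytokines and chemokines 0 rose and 31 fell of the 47 tested (1 and 34 without replicate 1), with a median log2 fold change of −0.94 (−1.05 without replicate 1). Of the NF-kB pathway 0 rose and 24 fell of the 34 tested (0 and 28 without replicate 1), with a median log2 fold change of −0.70 (−0.74 without replicate 1). Falls were the rule in these lists. Of antigen presentation 1 rose and 15 fell of the 24 tested (2 and 18 without replicate 1), with a median log2 fold change of −0.72 (−0.76 without replicate 1). Of oxidative phosphorylation 48 rose and 1 fell of the 91 tested (49 and 1 without replicate 1), with a median log2 fold change of 0.44 (0.30 without replicate 1). Removal of 1 library made the count higher 28 without control replicate 1, 26 without control replicate 2 and 29 without control replicate 3. Of cytosolic ribosomal proteins 48 rose and 1 fell of the 83 tested (50 and 8 without replicate 1), with a median log2 fold change of 0.39 (0.27 without replicate 1), and the number higher was 31 without control replicate 2. GBP1, an interferon-induced GTPase, was at 166, 161 and 162 CPM in the controls and 47.8, 53.99 and 64.2 CPM with LINC00996 (−1.56 ± 0.11, and −1.46 without replicate 1).

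**Figure D3:**
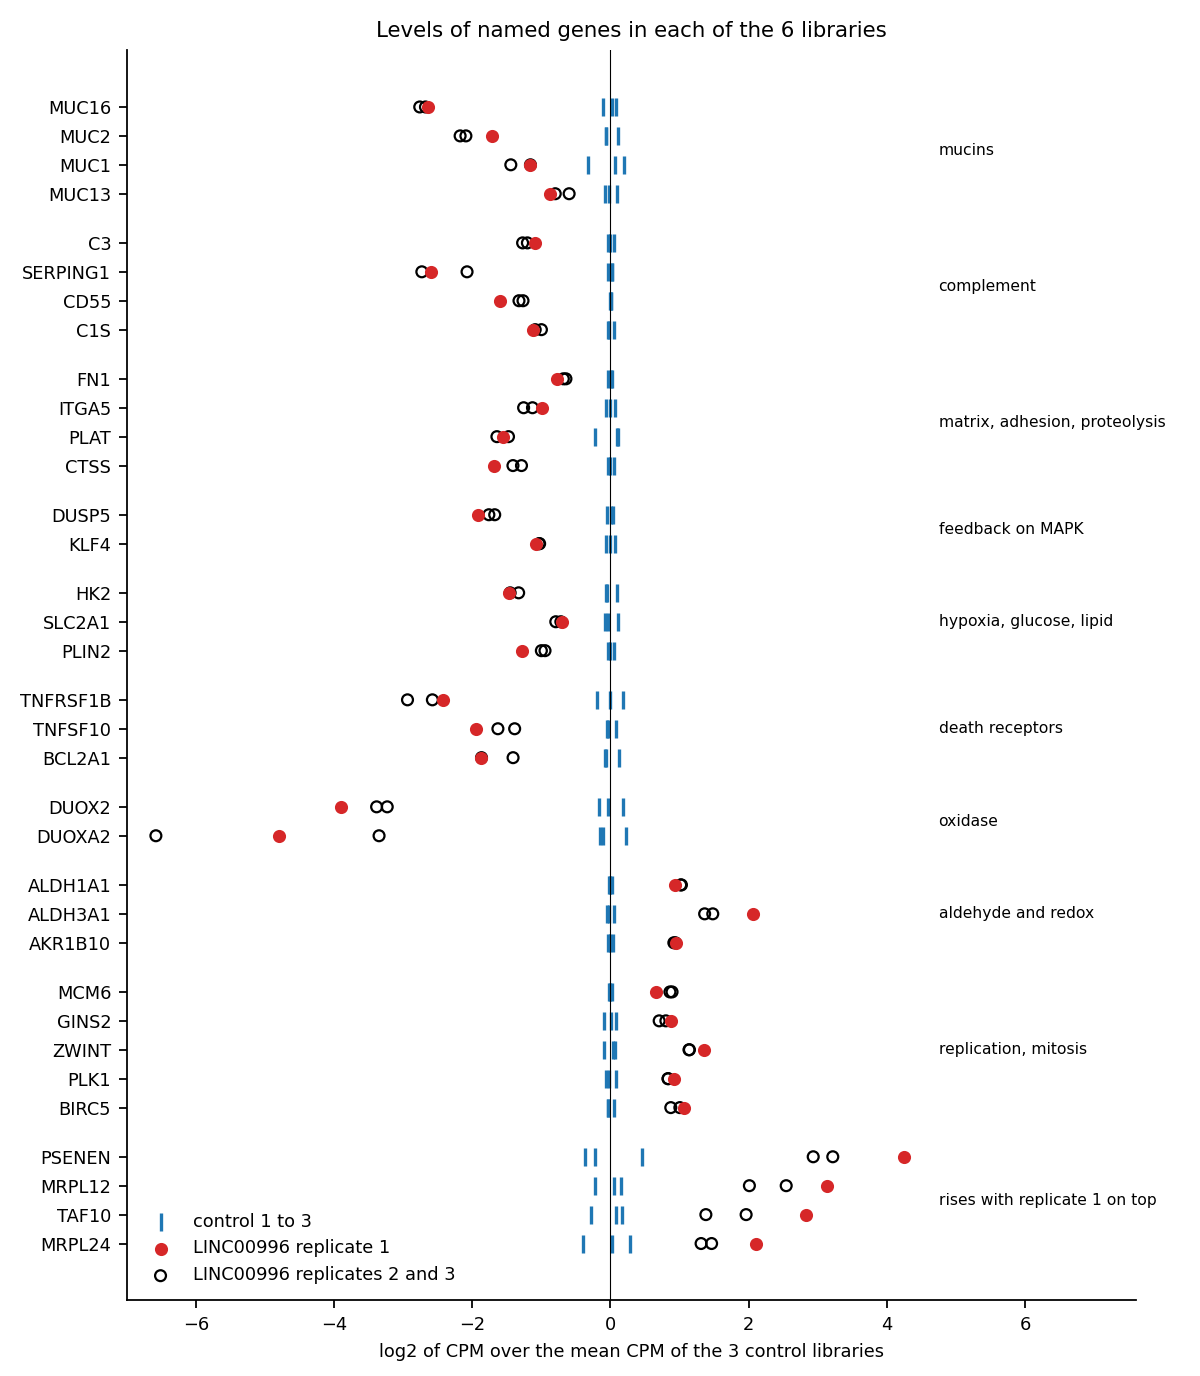
Each row is a gene, and the horizontal axis is the log2 of its CPM over the mean CPM of the 3 control libraries. Blue ticks are control libraries, the red point is LINC00996 replicate 1 and open points are LINC00996 replicates 2 and 3, which for the 4 genes at the bottom lie between the controls and replicate 1.

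Among genes called in both fits with a log2 change of at least 1, no overlap between groups and a mean of at least 5 CPM in the higher group, the largest rises after LINC00996 itself were of PSENEN, MRPL12, TAF10, TMEM256 and COX6A1, and replicate 1 stood highest in the examples shown. PSENEN (ENSG00000205155, chr19:35745114-35747519), a subunit of the protease gamma-secretase, was at 1.61, 2.58 and 1.45 CPM in the controls and 35.7, 17.5 and 14.4 CPM with LINC00996. MRPL12 (ENSG00000262814, chr17:81703357-81707526), a mitochondrial ribosomal protein, was at 3.99, 3.72 and 3.08 CPM in the controls and 31.7, 20.97 and 14.5 CPM with LINC00996. Replicate 1 was the highest library for both, and replicates 2 and 3 still lay above each control. The fold changes were 3.59 ± 0.37, and 3.09 without replicate 1 for PSENEN and 2.64 ± 0.26, and 2.30 without replicate 1 for MRPL12. TAF10, a subunit of the general transcription factor TFIID, was at 4.76, 4.47 and 3.49 CPM in the controls and 30.2, 16.5 and 11.05 CPM with LINC00996 (2.18 ± 0.32, and 1.70 without replicate 1). The gene TMEM256 rose (2.17 ± 0.35, and 1.68 without replicate 1), and so did COX6A1 of cytochrome c oxidase (2.06 ± 0.19, and 1.93 without replicate 1). Exons shared with other genes make these levels uncertain: 41.03% of the exon bases of PSENEN and 38.9% of those of TAF10 overlap genes on the opposite strand, and 68.2% of those of MRPL12 and 29.8% of those of TMEM256 are shared on the same strand. Against the AP001189.3 libraries PSENEN differed by 0.73 and MRPL12 by 0.47, with adjusted p = 0.0767 and 0.193 in edgeR with Benjamini-Hochberg adjustment. For TAF10 that difference was 0.09, with adjusted p = 0.849 in edgeR with Benjamini-Hochberg adjustment. These 3 were not called there. TMEM256 differed by 1.09 and COX6A1 by 0.42, smaller than against the control and called, with adjusted p = 0.0195 and 0.0366 in edgeR with Benjamini-Hochberg adjustment.

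Rises and falls were spread unevenly over transcript lengths, beside 10.7% of all genes higher and 11.6% lower (15.9% and 17.3% without replicate 1). Of 668 genes whose longest transcript has up to 700 bases, 79 rose (11.8%, near the share of all genes) and 36 fell (5.39%), with 74 and 55 without replicate 1. Of 1628 with more than 700 and up to 1500 bases, 311 rose (19.1%) and 113 fell (6.94%), with 326 and 159 without replicate 1. Of 4262 with over 5000 bases, 272 rose (6.38%) and 707 fell (16.6%), with 606 and 1033 without replicate 1. GC content marked replicate 1. In genes of up to 40% GC it lay below replicates 2 and 3 by a median of −0.36 log2 units, and in genes of over 60% GC above them by 0.46. Without it, the balance of calls turned: 154 rose (6.14%) and 236 fell (9.41%) of the 2509 genes of up to 40% GC in 6 libraries, and 523 rose and 286 fell in 5. Of the 2311 genes of over 60% GC, 240 rose (10.4%) and 234 fell (10.1%) in 6 libraries, near the shares of all genes, and 220 rose and 552 fell in 5. Genes with many copies also leaned upward. Of 252 protein-coding genes with 5 or more named pseudogenes, 104 rose and 12 fell (129 and 23 without replicate 1), against 10.4% that rose of those with 0. Of 82 that share at least 50% of their exon bases with genes on the opposite strand, 21 rose and 3 fell (20 and 10 without replicate 1), against 11.4% that rose of those that share none. Of 141 that share at least 50% on the same strand, 10 rose and 2 fell (9 and 8), against 11.6%. The part that transcript length, GC content and shared sequence have in the rises was not tested.

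**Figure D4:**
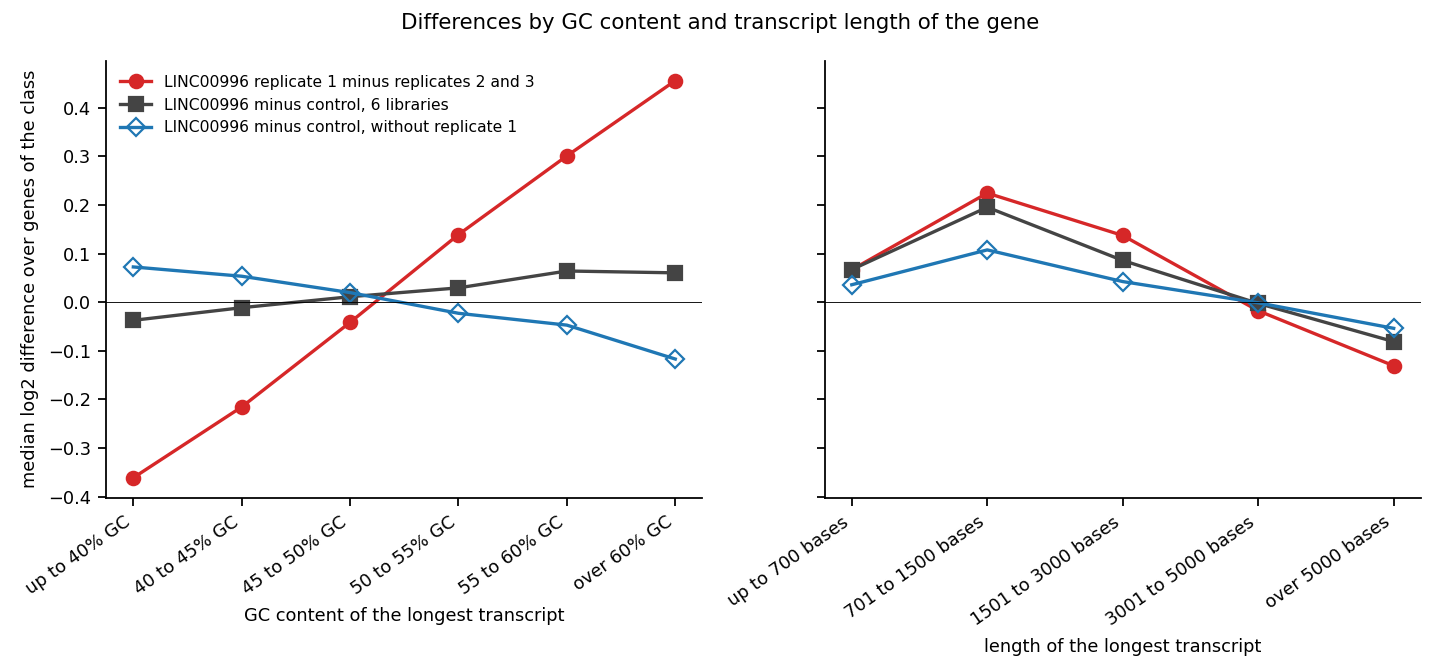
Medians over genes of each class of GC content (left) and of transcript length (right) of the log2 difference between LINC00996 replicate 1 and its fellow replicates, and of the log2 fold change with and without replicate 1. Replicate 1 runs from −0.36 in the class lowest in GC to 0.46 in the highest, and the slope of the fold change with GC turns when it is left out.

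Protein-coding genes were called more often (24.8%) than long non-coding genes (7.79%) or pseudogenes (13.7%), and genes above 100 CPM more often (39.4%) than those under 1 CPM (7.54%). On the mitochondrial genome 18 of 32 tested genes rose and 1 fell (16 and 0 without replicate 1). Its share of all counts was 5.32%, 5.66% and 5.26% in the controls, 6.68%, 7.07% and 7.18% with LINC00996, and from 5.32% to 5.52% with AP001189.3. This difference runs through whole libraries, and its cause was not tested. On other chromosomes between 17.7% and 25.1% of genes were called. Among long non-coding genes, AC079466.1 on chromosome 19 was at 31.6, 28.3 and 27.7 CPM in the controls and 8.97, 9.55 and 10.99 CPM with LINC00996 (−1.57 ± 0.13, and −1.502 without replicate 1). AL365203.2 on chromosome 10 was at 9.28, 7.37 and 6.57 CPM in the controls and 12.3, 17.8 and 17.3 CPM with LINC00996 (1.03 ± 0.18, and 1.18 without replicate 1). The groups did not overlap for either gene, which was a condition of their naming, and replicate 1 was the lowest LINC00996 library for AL365203.2. BX255923.2 (−2.02 ± 0.27, and −2.20 without replicate 1) and AC133644.2 (−1.97 ± 0.27, and −1.87 without replicate 1) fell, and AC087752.3 rose (1.82 ± 0.40, and 1.67 without replicate 1). AP001453.2 rose (1.41 ± 0.29, and 1.39 without replicate 1), but shares 61.1% of its exon bases with genes on the opposite strand and is uncertain.

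Within 500 kb on either side of LINC00996 the annotation holds 36 genes, itself included, and 5 others had enough counts to be tested. GIMAP2, a lymphocyte GTPase gene of the same cluster, was at 5.18, 7.998 and 5.12 CPM in the controls and 2.88, 3.08 and 2.73 CPM with LINC00996 and fell (−1.07 ± 0.22, and −1.07 without replicate 1). AC073111.5 (−0.71 ± 0.16, and −0.86 without replicate 1) fell, and so did REPIN1 (−0.42 ± 0.11, and −0.54 without replicate 1), a replication initiator and zinc finger gene. REPIN1 was not called without control replicate 1, control replicate 2 or LINC00996 replicate 2, where its fold change was −0.38, −0.43 and −0.36. ZNF775 missed the threshold with −0.55 ± 0.18, and −0.68 without replicate 1 and, by edgeR with Benjamini-Hochberg adjustment, adjusted p = 0.0504, but was called without replicate 1 with 0.00345. Exons shared with other genes on the same strand make its counts uncertain. KCNH2, a cardiac potassium channel gene, was not called (−0.13 ± 0.24, and −0.19 without replicate 1).

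The identity of the cells was checked on marker lists. Each of 14 markers of A549 was above 1 CPM, and their summed level was 17597, 17487 and 17639 CPM in the controls and 25984, 23127 and 22844 CPM with LINC00996. By the mean over the 6 libraries KRT8, a keratin of simple epithelium, was the most abundant of them. In LINC00996 replicates 2 and 3 ALDH1A1 was higher, at 6039.5 and 5995 CPM against 4385 and 4352 CPM for KRT8. Markers of alveolar cells were mostly scarce: 4 of 10 had 3 counts or fewer in each library, and HOPX had 0. Their sum was 241, 248 and 241 CPM in the controls and 63.2, 65.7 and 87.9 CPM with LINC00996, nearly all of it LAMP3. LAMP3, a lysosomal membrane protein that interferon also induces, was at 236, 243 and 235 CPM in the controls and 55.2, 60.02 and 82.97 CPM with LINC00996 (log2 fold change −1.85, and −1.73 without replicate 1). Of 14 lymphocyte markers, 10 had 3 counts or fewer in each library, 5 of them 0 (CD2, CD3D, CD3G, MS4A1 and CD79B), and the most abundant was NKG7 at a mean of 0.488 CPM. Their sum was 0.833, 2.02 and 0.989 CPM in the controls and 1.94, 1.22 and 1.04 CPM with LINC00996. Of 10 myeloid markers 2 were above 1 CPM, with CD14 at the top and TYROBP at 0, and the sum was 20.8, 17.4 and 17.5 CPM in the controls and 19.9, 18.9 and 17.1 CPM with LINC00996. Of 9 fibroblast markers 3 were above 1 CPM, with COL1A1 at the top, and the sum was 25.9, 27.8 and 25.5 CPM in the controls and 20.8, 20.1 and 18.6 CPM with LINC00996. Of 7 endothelial markers 2 were above 1 CPM, with PECAM1 at the top, and the sum was 12.6, 13.2 and 13.6 CPM in the controls and 6.48, 7.31 and 7.27 CPM with LINC00996. Since the control labels share the name of a prostate cancer line, 9 prostate markers were read too. KLK3 and PCA3 had 0 counts in these 6 libraries, STEAP2 was the most abundant, and the sum was 214, 230.4 and 223 CPM in the controls and 160.1, 198 and 199 CPM with LINC00996.

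Promoter windows were read for what the called genes share in sequence. The windows, from RefSeq on GRCh38.p14, run from 250 bases before to 50 after a gene's start, and 120 of the 172 named genes and 11030 of the 16097 tested genes had one. Motifs were searched on both strands, and a match describes letters in the window, not a bound site or a cause. The NF-kB motif, kappaB, was found in 53 of 235 windows (22.6%) of genes lower by at least 1 log2 unit in both fits, against 13.2% of all genes tested and 10.8% of all promoters of the table. The interferon-stimulated response element (ISRE) was in 31 of 235 (13.2%), against 2.93% and 3.65%. The AP-1 motif TGANTCA was in 26 of 235 (11.1%), against 4.78% and 7.76%. The TATA box letters TATAAA were in 38 of 235 (16.2%), against 5.81% and 11.95%. The genes lower by at least 1 include members of the interferon, cytokine, NF-kB and antigen presentation lists, such as GBP1, CXCL11, BIRC3 and HLA-B. These lists hold genes known to answer to NF-kB or interferon, and shares outside them were not computed. The cyclic AMP element TGACGTCA was in 0 of 235, against 3.14% and 1.98%. In the genes higher by at least 1 in both fits, these motifs were in 11.8%, 1.96%, 6.86%, 1.96% and 2.94% of 102 windows. With no limit on size the shares were 15.997%, 6.67%, 6.82%, 9.48% and 2.65% of 1319 windows of genes lower in both fits and 12.7%, 2.51%, 3.40%, 4.38% and 2.35% of 1234 windows of genes higher in both.

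Other motifs were read in the gene lists they are known for. The E2F motifs TTTGGCGC or TTTCCCGC were in 18 of 41 windows of DNA replication genes (43.9%), against 3.60% of all genes tested and 2.31% of all promoters. The cell cycle homology region TTTGAA or TTCGAA was in 33 of 50 windows of mitosis genes, against 11.1% and 16.6%. The hypoxia response core ACGTG was in 10 of 20 windows of hypoxia-inducible genes, against 26.4% and 21.6%. The antioxidant element TGACNNNGC was in 8 of 26 windows of NRF2 targets (30.8%), against 15.2% and 13.6%. These lists hold genes known to answer to the regulator. The hypoxia core was in 24.03% of all genes lower in both fits and 19.6% of those lower by at least 1. In genes higher in both fits it was more frequent, at 29.5%, and 22.5% of those higher by at least 1. Of all genes higher in both fits 6.24% had E2F, 13.1% the cell cycle homology region and 15.7% the antioxidant element, and the shares among those higher by at least 1 were 3.92%, 8.82% and 16.7%. For genes lower in both fits the shares were 1.97%, 12.7% and 14.7%, and for those lower by at least 1 they were 0.851%, 14.9% and 12.3%.

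**Figure D5:**
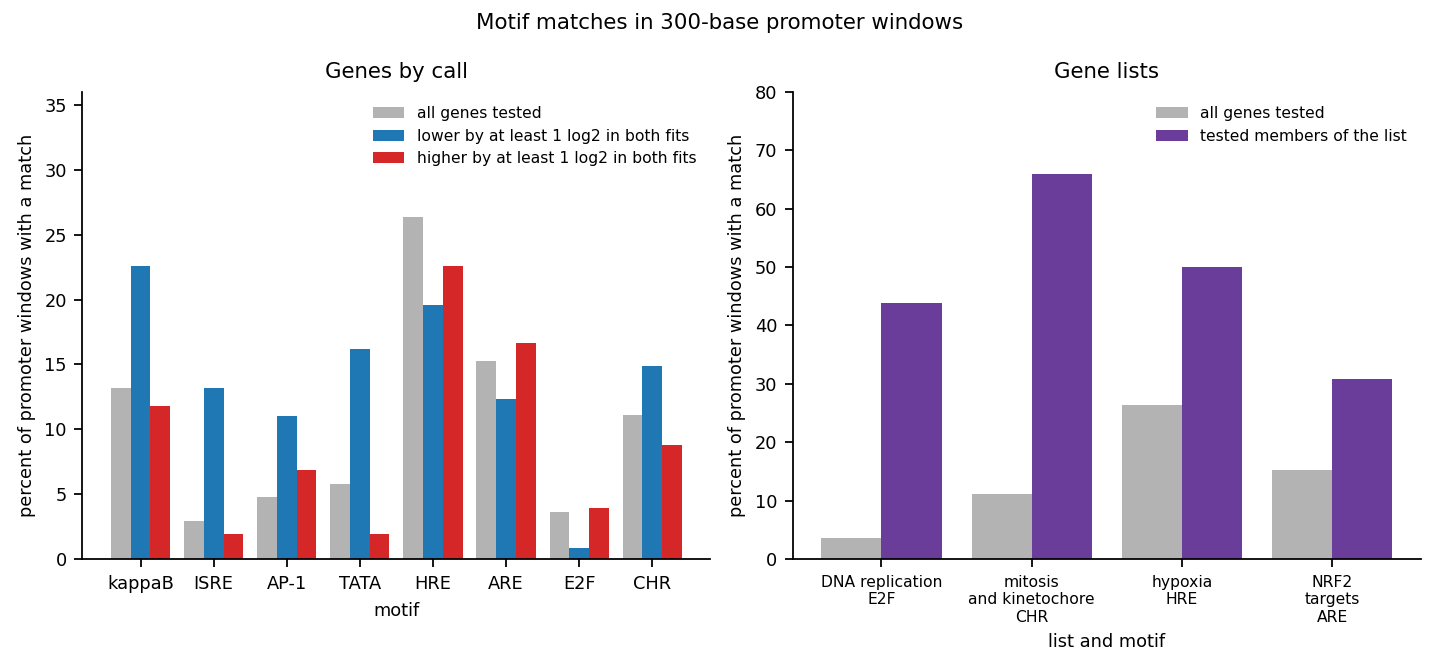
Share of 300-base promoter windows with at least 1 match, by motif, for all genes tested and for genes lower or higher by at least 1 log2 unit in both fits (left), and for members of 4 gene lists beside all genes tested (right). Bars start at 0, and the left panel shows kappaB, ISRE, AP-1 and TATA letters more often in the genes that fell. Members of the interferon and NF-kB lists are among those genes.

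Promoters of genes that fell are shown with the matched letters in capitals, each 5′ to 3′ on its own strand. DUOXA2 (chr15:45114076-45114375, plus strand) carries TATAAA 32 to 27 bases before its start, and its window shares 253 bases with that of DUOX2, which starts 154 bases away on the other strand. TRIM31 (chr6:30113041-30113340, minus strand) carries kappaB letters, TNFSF10 (chr3:172523381-172523680, minus strand) the interferon response element, MUC2 (chr11:1074624-1074923, plus strand) AP-1 letters and PLIN2 (chr9:19127443-19127742, minus strand) the hypoxia core.
DUOXA2: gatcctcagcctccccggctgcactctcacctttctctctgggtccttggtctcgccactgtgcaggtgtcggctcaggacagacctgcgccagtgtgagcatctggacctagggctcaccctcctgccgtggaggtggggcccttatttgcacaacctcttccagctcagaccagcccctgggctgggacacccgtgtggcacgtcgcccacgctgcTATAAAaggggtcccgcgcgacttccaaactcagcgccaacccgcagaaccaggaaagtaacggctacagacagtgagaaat
TRIM31: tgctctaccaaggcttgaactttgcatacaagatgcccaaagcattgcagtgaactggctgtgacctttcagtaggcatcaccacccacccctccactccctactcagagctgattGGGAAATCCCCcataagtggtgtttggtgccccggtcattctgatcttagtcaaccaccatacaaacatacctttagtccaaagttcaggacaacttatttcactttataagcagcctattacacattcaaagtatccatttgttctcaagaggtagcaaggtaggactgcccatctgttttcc
TNFSF10: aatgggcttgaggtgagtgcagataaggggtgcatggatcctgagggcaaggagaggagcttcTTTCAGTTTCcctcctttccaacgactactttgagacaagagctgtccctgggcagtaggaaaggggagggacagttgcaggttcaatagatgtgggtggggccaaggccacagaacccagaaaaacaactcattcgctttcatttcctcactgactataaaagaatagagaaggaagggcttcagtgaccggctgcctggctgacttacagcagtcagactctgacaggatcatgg
MUC2: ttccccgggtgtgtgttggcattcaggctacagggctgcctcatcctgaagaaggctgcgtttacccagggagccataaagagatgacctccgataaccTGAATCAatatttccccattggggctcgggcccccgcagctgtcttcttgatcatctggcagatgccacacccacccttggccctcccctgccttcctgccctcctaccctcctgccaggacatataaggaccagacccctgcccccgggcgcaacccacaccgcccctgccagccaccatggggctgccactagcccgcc
PLIN2: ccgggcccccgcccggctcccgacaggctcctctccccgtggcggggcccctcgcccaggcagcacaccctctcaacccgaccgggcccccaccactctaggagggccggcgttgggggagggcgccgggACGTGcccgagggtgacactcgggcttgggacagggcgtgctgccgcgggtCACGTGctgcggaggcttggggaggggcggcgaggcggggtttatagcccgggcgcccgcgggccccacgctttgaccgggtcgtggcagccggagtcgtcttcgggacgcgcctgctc

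Promoters of genes that rose are shown the same way, with E2F letters in MCM6 (chr2:135876394-135876693, minus strand) and the cell cycle homology region in ZWINT (chr10:56361210-56361509, minus strand) in capitals.
MCM6: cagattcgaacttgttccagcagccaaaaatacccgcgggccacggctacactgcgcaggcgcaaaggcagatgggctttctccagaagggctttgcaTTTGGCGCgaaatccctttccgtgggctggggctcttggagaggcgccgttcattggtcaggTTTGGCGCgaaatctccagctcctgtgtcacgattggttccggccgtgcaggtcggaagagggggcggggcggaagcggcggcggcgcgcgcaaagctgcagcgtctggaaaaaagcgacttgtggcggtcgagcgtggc
ZWINT: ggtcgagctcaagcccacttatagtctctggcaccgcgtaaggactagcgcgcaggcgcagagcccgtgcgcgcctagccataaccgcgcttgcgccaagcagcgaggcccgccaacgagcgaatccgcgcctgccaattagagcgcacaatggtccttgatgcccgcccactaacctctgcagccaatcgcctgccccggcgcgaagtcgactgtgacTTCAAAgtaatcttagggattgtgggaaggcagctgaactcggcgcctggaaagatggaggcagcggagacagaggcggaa

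Against the 3 AP001189.3 libraries, which use no control library, the edgeR test called 3452 of 16095 genes (21.4%), 1510 higher and 1942 lower in LINC00996, and 6828 without LINC00996 replicate 1. The comparison shares the LINC00996 libraries with the comparison against the control plasmid, so its values are set beside it for named genes. PLAT differed by −1.84, DUSP5 by −1.79 and SLC6A14 by −1.96. Among genes that rose, AKR1B10 differed by 0.96, MCM6 by 0.83 and ZWINT by 0.79. For the chaperone CCT7 the difference was 0.32, and for EIF4H it was 0.23, with adjusted p = 0.131 in edgeR with Benjamini-Hochberg adjustment. Of the 96 called falls among the genes picked by rule, 96 were lower and 95 called lower against AP001189.3. Of the 73 called rises, LINC00996 aside, 72 were higher and 51 called higher, and the sign was opposite for MT-TC (−0.22). The rise was smaller against AP001189.3 than against the control plasmid for 60, and the fall for 50. Genes picked for the size of their change against the control can be expected to change less in another comparison, and no value for this was computed.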

How the data were processed

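RNA of A549 cells was poly(A)-selected and sequenced as paired-end reads. Per the labels and the study's methods, the authors aligned the reads with HISAT2 2.0.5, counted them per gene with featureCounts 1.5.0-p3 and deposited raw counts of 58735 genes, which were used here. The strand setting of the counting was not stated. In R 4.3.3, edgeR 4.0.16 with TMM scaling, its default filter and a robust quasi-likelihood fit compared 3 LINC00996 with 3 control libraries, and the fit was repeated without LINC00996 replicate 1. Values of p were adjusted by Benjamini-Hochberg. DESeq2 1.42.0, other scalings and filters, offsets for GC content and gene length, a replicate block and the removal of each library in turn were the alternatives, and those applied to the fit without replicate 1 were chosen after seeing the data. Members, the 31 gene lists by role, the 6 lists of immune, respiratory and ribosomal genes and the 7 marker lists were chosen with earlier results of these data known. Genes were named by rule. From those called in both fits in the same direction, by at least 1 log2 unit in both and without overlap between groups, came the genes with the smallest adjusted p, the largest changes (mean of at least 5 CPM in the higher group) and non-coding genes. Without these conditions came up to 4 members of each list with the smallest adjusted p, the 5 genes with the smallest adjusted p of those called with replicate 1 alone, and the tested genes within 500 kb of LINC00996. Under an alternative, 12 of 172 named genes changed their call or sign, a count that these rules partly set. Some members of the lists are not reported here.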

Additional observations from a re-analysis of the deposited data

How the results depend on the processing

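Against 3588 genes called in 6 libraries, DESeq2 called 3516, library size alone 3675, the length offset 3634, and the 9-library fit 4659. The GC offset called 5993, 3555 of them shared with the 6-library calls, and the cause was not tested. It moved 34 of 84 counts of list members called by more than a factor of 1.5, and 33 with the replicate block, but the larger of the higher and lower counts changed side in 0 of 42 lists. It changed side for p53 targets with the length offset (6 higher and 7 lower, against 5 and 4), and for 2 lists without control replicate 1 or 3. For glycolysis, with 3 higher and 5 lower, the counts were then 3 and 2 in either case, and for drug and retinoid metabolism, with 9 and 8, they were 5 and 6, and 6 and 7. A size threshold of 1 log2 unit left 759 by its construction, and 788 of the 5481 called without LINC00996 replicate 1. With each library left out in turn the count ran from 1925 (control replicate 2) to 5481 (LINC00996 replicate 1), and against AP001189.3 it rose to 6828 without LINC00996 replicate 1. No gene called in 6 libraries was called in the opposite direction under any alternative. Of 172 named genes, 160 kept their direction and their side of the threshold under each of the 16 alternatives that gave them a value. Most were named for a small adjusted p, and part of them for a call both with and without replicate 1. Another 5 were named because they lost their call without replicate 1. The count of 160 is thus partly set by the choice and does not measure how firm the calls of other genes are. With at least 10 counts in every library 167 of the named genes had a value, and 169 with mitochondrial genes left out. KCNH2, not called in any of them, had log2 fold changes from −0.194 without control replicate 1 to 0.000606 without control replicate 2, where its sign reversed. With the replicate number as a block 4500 genes were called, and 5979 with the block and the GC offset. The deviations of same-numbered libraries correlated at 0.202, 0.0208 and 0.110 over 14625 genes, and control replicate 2 fitted LINC00996 replicate 3 better, at 0.0678, so the numbers were not taken as pairs. A group size of 3 libraries and 15272450 counts in the smallest limit what can be called among scarce genes, and the spread between replicates may be technical. Whether the counts separate overlapping genes on opposite strands is not known, and reads of near-identical copies cannot be placed surely.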
